A study of Mus musculus with 11 samples.

Results

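The genes described here are 10 contractile genes of smooth muscle cells and myofibroblasts, taken by symbol: Acta2, Actg2, Myh11, Myl9, Tagln, Cnn1, Cnn2, Tpm2, Lmod1 and Smtn. All 10 were among the 15274 genes of the deposited table, and all 10 were tested. RNA sequencing was done on injured and uninjured heart regions of inbred mice, with 2 injured and 3 uninjured libraries of C3H/HeJ (C3H) and 3 injured and 3 uninjured libraries of C57BL/6J (B6). Titles name day 7, the mice were 8 weeks old, and no group carries a transgene or a drug treatment in the labels. Both regions came from the same mouse in 2 C3H and 3 B6 animals, and the third C3H mouse gave an uninjured region only. The sources used here do not say what the injury was. C3H is known for dystrophic calcification of the heart.

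Smooth muscle cells of the coronary vessels generate force by sliding actin filaments along smooth muscle myosin, which is switched on when the regulatory light chain is phosphorylated. After injury, cardiac fibroblasts can become myofibroblasts, which lay down matrix and acquire part of the same actin-based machinery. In both cell types many of these genes are known targets of serum response factor with its myocardin-family partners, which bind CArG boxes, and of TGF-beta signalling. In bulk tissue, fewer cells of a type and less RNA per cell cannot be told apart.

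RefSeq promoter sequences of build GRCm38.p6, each from 250 bases before to 50 after an annotated start, were at hand for 7 of the 10 genes. They are shown for Acta2, the gene most used to recognise myofibroblasts, for Myl9 and Cnn2, which with Acta2 held CArG matches, and for Cnn1, which held none and had the smallest p of the 10 in both injury comparisons below. Capitals mark CArG matches, meaning CC, an A/T core with at most 1 other base, and GG, a pattern that reads alike on both strands.
Acta2: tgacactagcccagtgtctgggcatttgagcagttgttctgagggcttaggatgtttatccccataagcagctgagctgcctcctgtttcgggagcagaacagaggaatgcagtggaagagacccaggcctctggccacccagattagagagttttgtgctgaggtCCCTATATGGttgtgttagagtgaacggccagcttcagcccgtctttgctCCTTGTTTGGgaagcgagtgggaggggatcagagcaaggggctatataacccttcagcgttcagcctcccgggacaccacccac
Myl9: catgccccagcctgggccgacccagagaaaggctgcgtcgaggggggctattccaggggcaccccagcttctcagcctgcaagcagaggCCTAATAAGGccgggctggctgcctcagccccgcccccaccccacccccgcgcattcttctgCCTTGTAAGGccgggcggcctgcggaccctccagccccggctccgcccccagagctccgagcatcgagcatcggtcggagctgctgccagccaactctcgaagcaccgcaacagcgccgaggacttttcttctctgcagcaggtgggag
Cnn2: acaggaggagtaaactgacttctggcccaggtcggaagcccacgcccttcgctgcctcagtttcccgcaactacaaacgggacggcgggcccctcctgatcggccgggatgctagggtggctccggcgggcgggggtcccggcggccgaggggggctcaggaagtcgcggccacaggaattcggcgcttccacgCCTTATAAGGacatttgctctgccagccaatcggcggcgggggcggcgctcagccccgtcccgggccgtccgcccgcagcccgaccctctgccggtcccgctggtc
Cnn1: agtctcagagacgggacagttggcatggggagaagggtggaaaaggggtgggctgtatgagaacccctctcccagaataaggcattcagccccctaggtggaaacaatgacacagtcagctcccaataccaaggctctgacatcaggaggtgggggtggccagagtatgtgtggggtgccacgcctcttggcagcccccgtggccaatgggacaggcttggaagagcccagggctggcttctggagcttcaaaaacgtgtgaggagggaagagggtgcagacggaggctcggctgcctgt
The windows are chr19:34255324-34255623 on the minus strand for Acta2, and on the plus strand chr2:156775214-156775513 for Myl9, chr10:79988350-79988649 for Cnn2 and chr9:22099003-22099302 for Cnn1. The Acta2 matches begin 84 and 34 bases before the start, those of Myl9 161 and 99 bases before it, and that of Cnn2 56 bases before it. Matches with a pure A/T core, which the looser pattern includes, were found in Myl9 (1 of its 2 matches) and Cnn2. Of all 32851 promoter windows of this length, 9.98% held the looser pattern and 1.63% the pure one, against 3 and 2 of the 7 windows here. CATTCC, the MCAT element, on either strand was found in Acta2, Lmod1 and Smtn (14.7% of all windows), and TATAAA in none of the 7 (13.6% of all windows). A match is a description of these letters and not evidence of binding.

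Between 9699985 (B6 uninjured library 2) and 22138459 reads (C3H uninjured library 3) were assigned to genes per library. Levels are normalised read counts, and changes are log2 fold changes of normalised count + 1 with their standard error (SE), tested with limma and adjusted over all 14751 genes tested by Benjamini-Hochberg at a threshold of 0.05. All 13 cardiomyocyte markers listed were detected in every group. Xist was at 1840 to 8478 in C3H and 3.14 to 12.2 in B6 libraries, while the Y-linked Ddx3y was at 0.888 to 3.46 in C3H and 1429 to 2221 in B6 libraries, so that strain and sex cannot be told apart. No batch is named in the labels. Libraries of 1 group came from separate mice.

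The first question was how the contractile genes compared between the 2 regions of C3H hearts. Cnn1, which encodes the smooth muscle calponin, rose, and Smtn, which encodes smoothelin, fell. These 2 of 10 passed the test, 1 up and 1 down, while 30.7% of all genes tested were called in this comparison (15.3% higher and 15.4% lower), so that the share of called genes here was no greater than over all genes. With scaling to total counts 3 of 10 were higher and 0 lower, and over all genes 3310 were higher and 1356 lower, against 2253 and 2274 in the fit reported here. With only the groups compared, 3 of 10 were also higher and 0 lower. The median change of the 10 genes was 0.47, against 0.01 over all genes tested. It was 0.27 without C3H injured library 1 and 0.78 with scaling to total counts (0.33 over all genes). Without C3H injured library 1, C3H injured library 2 or C3H uninjured library 3, 1 of the 10 was called, where a lone injured library is assumed to vary like the other groups. With the mouse as a random block 4 were called (Cnn1, Smtn, Tagln and Actg2, against 41.8% of all genes), and as a fixed block 3 (all but Actg2, against 34.8%). Without overlap between the groups, Actg2, Tagln and Cnn1 were higher (3 of 10, against 29.6% of all genes) and Smtn was lower (1 of 10, against 29.7%).

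The second question was the same for B6 hearts, where 9 of the 10 genes were higher in injured regions, all but Smtn, but few calls were made. With limma 0 of 10 passed, while 6 of 10 had an unadjusted p below 0.05, a level that 13.4% of all genes reached. edgeR called 0 and DESeq2 called 1, Cnn1. In this comparison 0.0136% of all genes (2 of 14751) were called. With the mouse as a block, Cnn1 rose by 2.14 (SE 0.31, adjusted p = 0.0242 with a fixed block, and SE 0.28, adjusted p = 0.00929 with a random block) and was 1 of the 21 (fixed) and 1 of the 16 genes (random) called (0.142% and 0.108%). Actg2, Myl9, Cnn1 and Lmod1 were higher without overlap, 4 of 10, against 9.83% of all genes. The median change of the 10 genes was 0.95, against 0.01 over all genes tested.

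**Figure D1:**
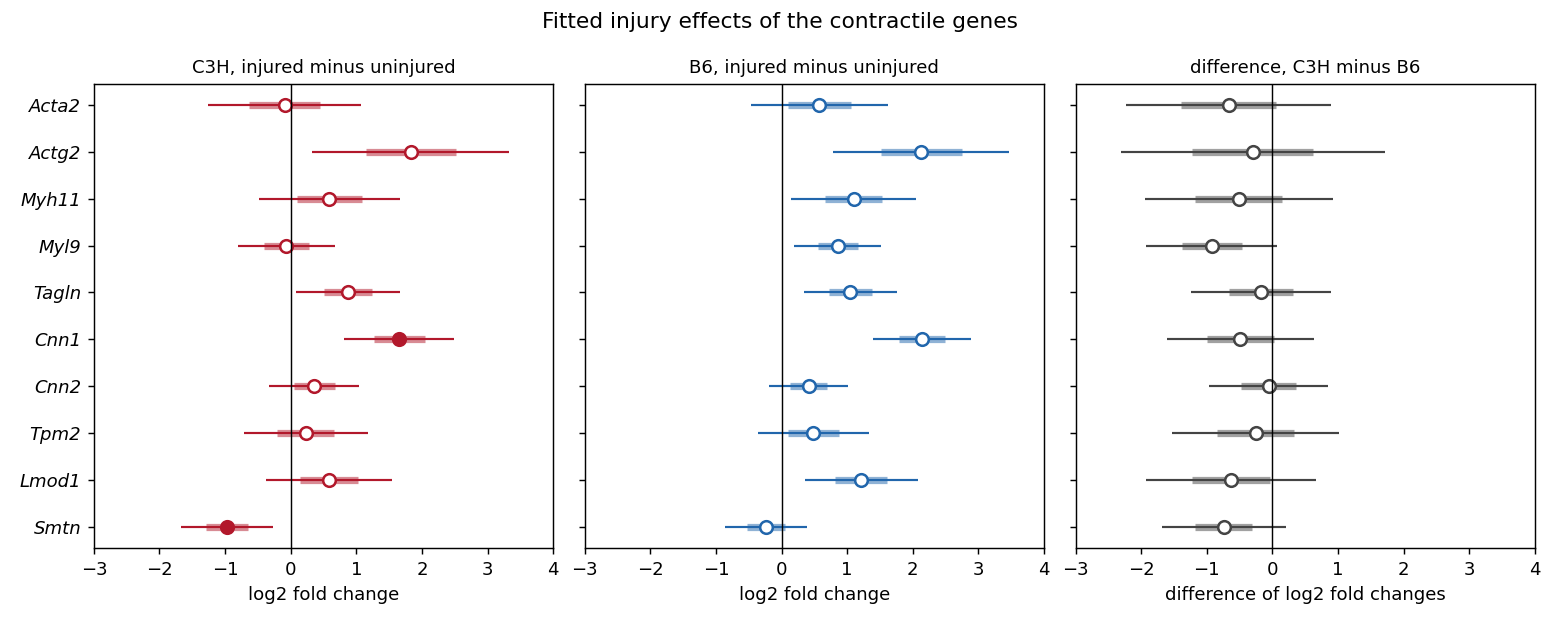
Fitted log2 fold changes of the 10 contractile genes between injured and uninjured regions of C3H (left) and B6 (middle) hearts, and the difference of these effects (right). Thick bars are 1 SE, thin bars 95% intervals, and filled points passed the adjusted threshold of 0.05. Cnn1 (1.66) and Smtn (-0.97) in C3H are the only filled points, and 95% intervals of all 10 differences between the strains include 0.

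Actins form the thin filament. Acta2, the smooth muscle alpha-actin by which myofibroblasts are commonly recognised, had 6378 and 2540 normalised counts in the 2 injured C3H libraries, against 7010, 2010.0 and 5616 in the 3 uninjured ones. The ranges overlapped, and the spread within C3H was wider than the gap between the regions. Injured B6 libraries had 9854, 7074 and 4678, against 6493, 4291 and 3546 in uninjured ones. Each injured B6 region was higher than the uninjured region of its own mouse, but the groups overlapped. The fitted change was -0.09 in C3H (SE 0.54, adjusted p = 0.909) and 0.57 in B6 (SE 0.48, adjusted p = 0.586). The C3H value had the opposite sign after quantile normalisation (0.23), with scaling to total counts (0.22) and with a fixed animal block (0.10).

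Actg2, the gamma-actin of visceral smooth muscle, had 107 and 81.3 normalised counts in injured C3H libraries, against 40.6, 32.5 and 12.4 in uninjured ones, with no overlap. Among B6 libraries it had 166, 151 and 144 in injured libraries, against 73.4, 10.4 and 50.7 in uninjured ones, again with no overlap. The lowest value, in B6 uninjured library 2, rests on 5 reads. The change was 1.83 in C3H (SE 0.69, adjusted p = 0.0629) and 2.13 in B6 (SE 0.62, adjusted p = 0.364). The C3H change passed with edgeR (adjusted p = 0.0429), DESeq2 (0.0136) and the random animal block (0.0374), and missed with the fixed block (0.0783), over a range of 0.0136 to 0.235 in the 15 alternatives. Of 2146 distinct 50-base windows in the GENCODE M21 transcripts of Acta2, 7 also occurred in Actg1, and 0 in Actg2, Acta1, Actc1 or Actb. None of the 1592 windows of Actg2 (0) occurred in those other actin genes.

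Smooth muscle myosin is a hexamer of heavy and light chains. Myh11, its heavy chain and a marker of differentiated smooth muscle cells, had 1141 and 1377 normalised counts in injured C3H libraries, against 1204, 709 and 678 in uninjured ones. Injured B6 libraries had 667, 930.1 and 1811, against 482, 263 and 898 in uninjured ones. Ranges overlapped in both strains, and among injured B6 libraries the highest was 2.72 times the lowest. The change was 0.59 in C3H (SE 0.49, adjusted p = 0.386) and 1.10 in B6 (SE 0.44, adjusted p = 0.365). Of 6655 windows of Myh11, 26 also occurred in Myh9 and 16 in Myh10.

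Myl9 encodes the regulatory light chain whose phosphorylation starts contraction. It had 895 and 563 normalised counts in injured C3H libraries, against 832, 553 and 892 in uninjured ones, which overlap. B6 hearts gave 1439, 1083 and 1268 in injured libraries, against 1058, 657 and 475 in uninjured ones, with no overlap. The change was -0.07 in C3H (SE 0.34, adjusted p = 0.899) and 0.86 in B6 (SE 0.30, adjusted p = 0.364). With scaling to total counts (0.25) or the fixed animal block (0.07) the C3H value was above 0.

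Tagln, Cnn1 and Cnn2 encode calponin-family proteins that bind actin filaments. Tagln (SM22-alpha, an early marker of smooth muscle and myofibroblast differentiation) had 2580.4 and 1507 normalised counts in injured C3H libraries, against 986, 1087 and 1155 in uninjured ones. Injured B6 libraries had 5129.5, 3489.5 and 2717, against 2776, 1655 and 1193 in uninjured ones. The groups did not overlap in C3H, whereas in B6 the lowest injured library lay just under the highest uninjured one. The change was 0.88 in C3H (SE 0.36, adjusted p = 0.0870) and 1.05 in B6 (SE 0.32, adjusted p = 0.364). In C3H Tagln rose with the mouse as a fixed block, by 0.93 (SE 0.24, adjusted p = 0.0132), and with a random block, by 0.90 (SE 0.28, adjusted p = 0.0201), over a range of 0.0132 to 0.473 in the 15 alternatives. In GENCODE M21, 5.89% of the exonic bases of Tagln lie opposite exons of Pcsk7, and the sources used here do not give strandedness.

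Cnn1 restrains myosin ATPase activity and is a late marker of smooth muscle differentiation. It had 186 and 108 normalised counts in injured C3H libraries (215 and 153 reads), against 50.5, 38.7 and 44.4 in uninjured ones (51, 37 and 50 reads). Values in B6 were 277, 218 and 168 in injured libraries, against 59.2, 31.1 and 61.3 in uninjured ones. Injured and uninjured libraries were clearly apart in both strains. Cnn1 averaged 147 ± 55.0 in injured (SD, n = 2) and 44.5 ± 5.88 in uninjured C3H regions (SD, n = 3), and 221 ± 54.4 in injured and 50.5 ± 16.8 in uninjured B6 regions (SD, n = 3 each). It rose by 1.66 in C3H (SE 0.39, adjusted p = 0.00745), which no longer passed once C3H injured library 1 was left out (1.27, adjusted p = 0.0905). The B6 value was 2.14 (SE 0.34, adjusted p = 0.105), and the call made with the animal block is given above.

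Cnn2, the calponin that also occurs outside smooth muscle, had 1922 and 1275 normalised counts in injured C3H libraries, against 1295, 949.5 and 1489 in uninjured ones. B6 hearts gave 2402, 1726 and 1523 in injured libraries, against 1841, 1443 and 1006 in uninjured ones. All these ranges overlapped. The change was 0.36 in C3H (SE 0.31, adjusted p = 0.411) and 0.41 in B6 (SE 0.28, adjusted p = 0.507).

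Tpm2, the beta-tropomyosin that lies along the thin filament, had 1277 and 739 normalised counts in injured C3H libraries, against 996, 546 and 1041 in uninjured ones. Values in B6 were 2492, 1358 and 1374 in injured libraries, against 2054, 1022 and 806 in uninjured ones. The groups overlapped in both strains, with changes of 0.23 in C3H (SE 0.43, adjusted p = 0.713) and 0.49 in B6 (SE 0.39, adjusted p = 0.573). Lmod1, a leiomodin that nucleates actin filaments in smooth muscle, had 95.1 and 163 in injured C3H libraries, against 109, 105 and 49.7 in uninjured ones. Among B6 libraries it had 118, 124 and 213 in injured libraries, against 81.6, 43.6 and 68.3 in uninjured ones, with no overlap. Its change was 0.58 in C3H (SE 0.44, adjusted p = 0.337) and 1.22 in B6 (SE 0.40, adjusted p = 0.364).

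Smtn went the other way. Smoothelin is an actin-binding protein of contractile smooth muscle. It had 1723 and 1126 normalised counts in injured C3H libraries, against 2899, 1829 and 3873 in uninjured ones, with no overlap. B6 hearts gave 2067, 1722 and 2491 in injured libraries, against 3107, 2186 and 2131 in uninjured ones, which overlap. Smtn fell by 0.97 in C3H (SE 0.32, adjusted p = 0.0386) and was at -0.24 in B6 (SE 0.29, adjusted p = 0.721), or at 0.01 there with scaling to total counts. This C3H call did not survive leaving out C3H injured library 2 (adjusted p = 0.300), C3H uninjured library 1 (0.0718) or C3H uninjured library 3 (0.133), with only the groups compared (0.0732), after quantile normalisation (0.0581) and with scaling to total counts (0.142). It held with the fixed (adjusted p = 0.0329) and the random animal block (adjusted p = 0.0158). Over the same regions the cardiomyocyte markers moved down too: 10 of 13 fell in C3H (median -1.69), or 4 of 13 without C3H injured library 2, 6 without C3H injured library 1 and 6 after quantile normalisation, with summed levels of 647345 to 648746 in injured and 1823560 to 2106900 in uninjured C3H libraries. Over all genes, 15.4% were called lower in C3H. In B6, 0 of 13 passed with limma (median -0.70, 3 with an unadjusted p below 0.05), with sums of 910277 to 1176930 in injured and 1470960 to 1860060 in uninjured libraries. No marker of that list was at 0 in any group (0 of 13), and their part in the Smtn result was not tested.

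**Figure D2:**
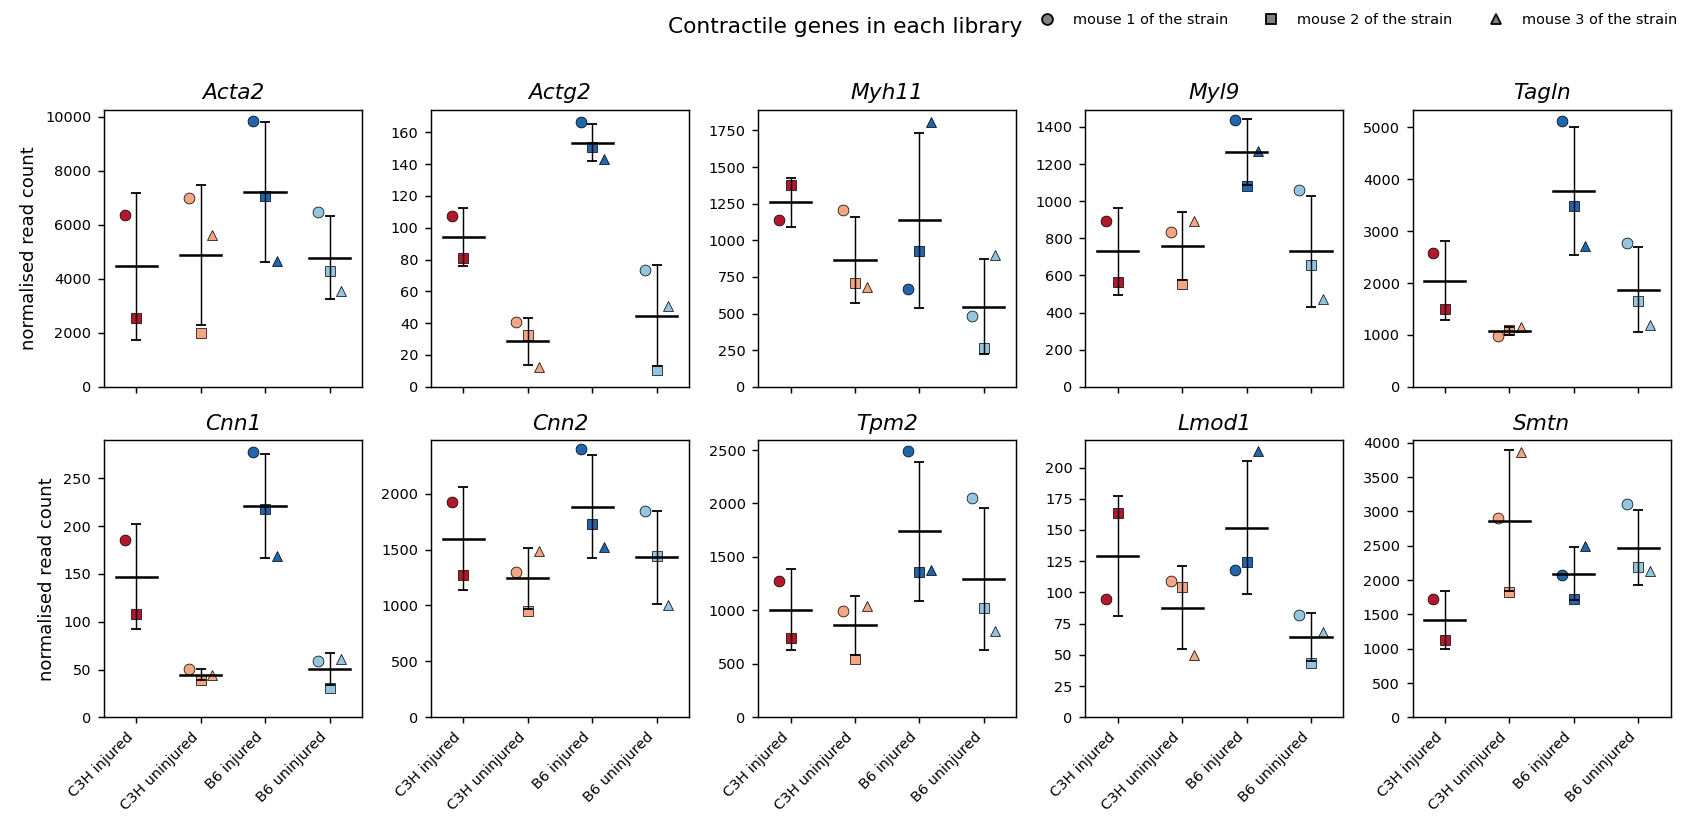
Normalised read counts of the 10 contractile genes in each library, by group. Symbols give the mouse number within a strain, and bars the mean and SD (n = 2 for C3H injured, n = 3 for the other groups). Cnn1 lies at 108 to 186 in injured C3H and 168 to 277 in injured B6 libraries, above all uninjured libraries (31.1 to 61.3), whereas Acta2 overlaps between all 4 groups.

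Comparing the regions of each mouse showed how far the direction was shared. Actg2, Myl9, Tagln, Cnn1, Cnn2 and Tpm2 were higher in the injured region of all 5 mice, 6 of 10 genes, against 18.6% of all genes tested. All 3 B6 mice were higher for 9 of 10 (23.0% of all genes), and both C3H mice for 6 of 10 (39.6%). Acta2, Myh11 and Lmod1 were higher in 4 of 5 mice, the exception each time being C3H mouse 1, whose injured region was lower by 0.14, 0.08 and 0.19 on the log2 scale. Smtn was lower in 4 of 5 mice, the exception being B6 mouse 3 (0.23). Cnn1 had within-mouse differences of 1.86 and 1.46 in C3H and 2.21, 2.77 and 1.44 in B6. Tagln had 1.39 and 0.47 in C3H and 0.89, 1.08 and 1.19 in B6. Across the 10 genes the median within-mouse difference was 0.23 and 0.45 in the C3H mice and 0.50, 0.90 and 1.10 in the B6 mice.

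**Figure D3:**
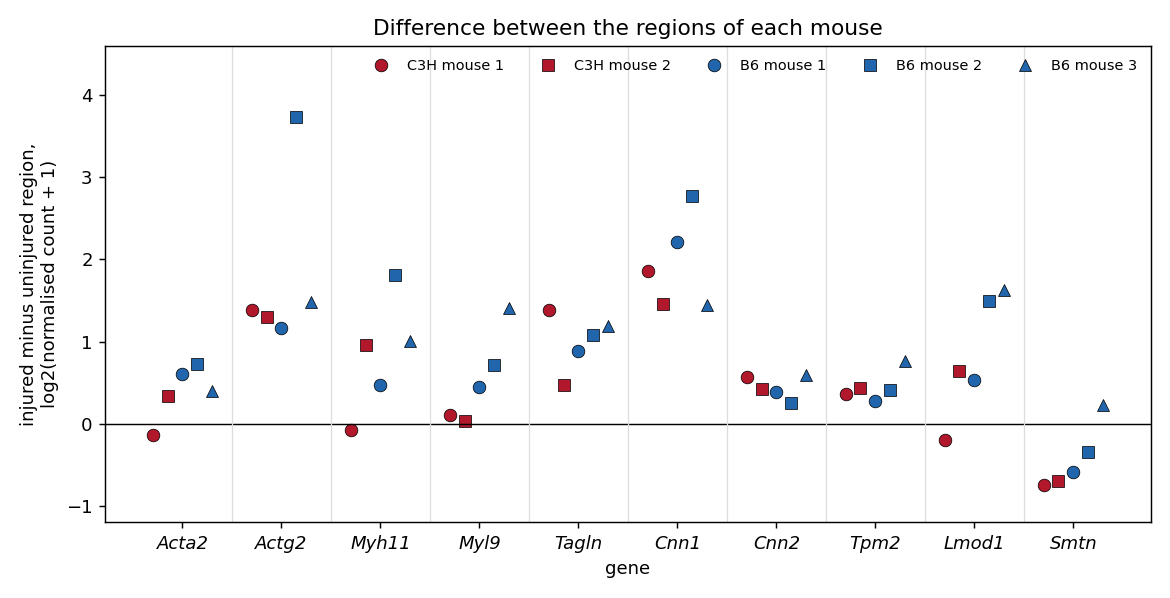
Difference in log2(normalised count + 1) between the injured and the uninjured region of the same mouse, for 2 C3H (red) and 3 B6 mice (blue). Points above 0 are higher in the injured region. Cnn1 lies at 1.44 or more in all 5 mice, Smtn below 0 in 4 of 5, and the single Actg2 value of 3.74 belongs to B6 mouse 2, whose uninjured library had 5 reads of it.

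The third question was whether the injury effects differed between the strains, and no contractile gene passed that test. The difference, C3H minus B6, was below 0 for all 10, with a median of -0.50, against -0.02 over all genes tested. That median was -0.10 without C3H injured library 2, -0.16 without B6 uninjured library 2 and -0.28 without C3H uninjured library 1. With limma 0 of 10 passed, 0 of 10 had an unadjusted p below 0.05 (14.1% of all genes did), and edgeR and DESeq2 called 0 each, while 1.57% of all genes were called. The lowest was that of Myl9, at -0.92 (SE 0.46, adjusted p = 0.391), with a 95% interval of -1.92 to 0.07. The next were Smtn at -0.74 (interval -1.68 to 0.21) and Acta2 at -0.67 (interval -2.23 to 0.90). Cnn1 was at -0.49 (interval -1.61 to 0.64), an interval that spans both directions. The C3H injured group holds 2 libraries, and a missed threshold does not show that the strains respond alike. The sign of Cnn2 was the opposite with the fixed animal block (0.08) and with scaling to total counts (0.01). Leaving out 1 library turned the sign of Actg2, Cnn2, Tagln or Tpm2 in 2 to 4 of 11 cases each.

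The last comparisons set the strains against each other within a region. In injured regions 9 of 10 genes were lower in C3H than in B6, all but Myh11, with a median of -0.66, against 0.01 over all genes, and -0.32 without C3H injured library 2. With limma 0 of 10 passed, 2 had an unadjusted p below 0.05 (Tagln and Myl9, against 23.8% of all genes), and edgeR and DESeq2 called 0 each, while 7.06% of all genes were called. Leaving out 1 library turned the sign of Cnn2, Lmod1 or Myh11 in 1 to 2 of 5 cases each. Tagln was at -0.89 (SE 0.36, adjusted p = 0.160) and Myl9 at -0.82 (SE 0.34, adjusted p = 0.167). Both injured C3H libraries were below all 3 injured B6 libraries for Actg2, Myl9, Tagln and Tpm2, 4 of 10, against 24.2% of all genes. In uninjured regions the median was -0.12, against -0.01 over all genes, and 4 of 10 were higher in C3H. The direction turned without B6 uninjured library 1 (median 0.13, 8 of 10 higher) and without C3H uninjured library 2 (median 0.12, 6 of 10 higher), and the median was -0.22 without C3H uninjured library 1. With limma 0 of 10 passed, 1 had an unadjusted p below 0.05 (Tagln, against 16.3% of all genes), and edgeR and DESeq2 called 0 each, while 3.1% of all genes were called. Tagln was at -0.71 there (SE 0.32, adjusted p = 0.301), with all 3 uninjured C3H libraries below all 3 uninjured B6 libraries, as for 9.27% of all genes. These comparisons share libraries with the injury effects above.

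Ordered by group mean, injured B6 regions came first for 8 of the 10 genes. The exceptions were Myh11, with 1259 ± 166 in injured C3H (SD, n = 2) and 1136 ± 599 in injured B6 regions (SD, n = 3), and Smtn, which was highest in uninjured C3H regions at 2867 ± 1023 (SD, n = 3). Neither these orders nor the overlaps of neighbours were counted over all genes, so no such share stands beside the counts. Of the 30 pairs of neighbours in these orders, 24 overlapped in range. The 6 that did not were those of Actg2 (injured B6, injured C3H and uninjured B6 regions all apart), Myl9 (injured B6 above uninjured C3H), Tagln (injured B6 above injured C3H, and uninjured B6 above uninjured C3H) and Cnn1 (injured C3H above uninjured B6).

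The 10 genes did not vary as 1 block between mice. Among injured B6 libraries, that of mouse 1 was highest for Acta2, Actg2, Myl9, Tagln, Cnn1, Cnn2 and Tpm2, 7 of 10, whereas that of mouse 3 was highest for Myh11, Smtn and Lmod1. Mouse 1 was the lowest of the 3 for Myh11 and Lmod1. Of the injured C3H libraries, that of mouse 1 was higher for 8 genes, Smtn among them, and that of mouse 2 for Myh11 and Lmod1. Over the 11 libraries, the Pearson correlation of a gene with the mean standardised level of the other 9 was 0.89 for Myl9, 0.81 for Tpm2, 0.80 for both Tagln and Cnn1, 0.78 for Cnn2, 0.73 for Actg2 and 0.70 for Acta2. It was 0.42 for Lmod1, 0.22 for Myh11 and -0.07 for Smtn. These values are descriptions over libraries that share group and mouse.

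Of 12005 other genes with a mean of at least 50, Tgfb1i1 (r = 0.95), Nkd1 (0.95), Wtip (0.93), Map3k7cl (0.93) and Mapk11 (0.92) followed the mean standardised level of the 10 genes most closely over the 11 libraries, chosen for that likeness. Tgfb1i1, which encodes the focal adhesion protein Hic-5, averaged 712 normalised counts in injured and 473 in uninjured C3H regions, and 832 in injured and 570 in uninjured B6 regions. Nkd1, an inhibitor of Wnt signalling, averaged 83.2 in injured and 56.5 in uninjured C3H regions, and 141 in injured and 66.4 in uninjured B6 regions.

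A list of regulators tied to serum response factor and myocardin, which does not separate activators from repressors, showed a mixed pattern. Its median therefore gives no direction of their action. In C3H 30.7% of all genes were called, near the share of this list. Of 11 regulators tested, 1 rose and 2 fell in injured C3H regions (median -0.16), and 0 rose and 0 fell without C3H injured library 2. With scaling to total counts the median was 0.16, with 1 called higher and 0 lower. In B6 0 passed with limma (median 0.10, 1 with an unadjusted p below 0.05). In B6, edgeR called 0 genes of any list described here, and DESeq2 called 1, a macrophage marker. Mkl1, the myocardin-related coactivator that enters the nucleus when actin polymerises, rose by 1.60 in C3H (SE 0.35, adjusted p = 0.00541), a call that was lost without C3H injured library 2 (highest adjusted p = 0.0772). Srf, the DNA-binding partner, fell by 0.96 (SE 0.26, adjusted p = 0.0162), with 1283 ± 233 in injured (SD, n = 2) and 2561 ± 767 in uninjured C3H regions (SD, n = 3). The Srf call was lost without C3H injured library 2 or C3H uninjured library 3 (highest adjusted p over all alternatives 0.156). The third was Gata6, which fell by 0.76 (SE 0.21, adjusted p = 0.0182), a call lost without either C3H injured library or C3H uninjured library 2 (highest 0.146). Myocd, the myocardin gene itself, averaged 514 in injured and 668 in uninjured C3H regions, and 431 in injured and 445 in uninjured B6 regions, with overlapping ranges. In B6, Mkl1 had the smallest p of the list (0.69, SE 0.31, adjusted p = 0.372).

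Between the C3H regions, 15.3% of all genes were called higher and 15.4% lower. Other contractile and cytoskeletal genes changed in both directions in C3H. Of 28 such genes, 9 rose and 3 fell there (median 0.70). Without C3H injured library 1 the counts were 4 and 2, without C3H injured library 2 they were 5 and 0, without C3H uninjured library 2 they were 5 and 3, and without C3H uninjured library 3 they were 7 and 1. In B6 0 passed with limma (median 0.40, 5 with an unadjusted p below 0.05). Flna, an actin crosslinker, rose by 2.21 in C3H (SE 0.44, adjusted p = 0.00349), Actn1, the non-muscle alpha-actinin, by 1.99 (SE 0.31, adjusted p = 0.000976), and Actb, cytoplasmic beta-actin, by 1.72 (SE 0.38, adjusted p = 0.00556). Fhl2, a LIM protein that is abundant in heart muscle, fell by 2.03 (SE 0.44, adjusted p = 0.00515), a call lost without C3H injured library 2 (adjusted p = 0.0872). Ppp1r14a, which encodes the myosin phosphatase inhibitor CPI-17, was the 1 gene of this list that was lower in injured C3H than in injured B6 regions (-1.58, SE 0.42, adjusted p = 0.0434), and that call was lost without any 1 of the 5 injured libraries.

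In C3H, where 15.3% of all genes were called higher, many TGF-beta pathway genes and matrix genes of myofibroblasts rose. Of 17 TGF-beta pathway genes 10 rose and 0 fell in C3H (median 1.10), or 5 without either of the injured C3H libraries, among them the latent TGF-beta binding protein gene Ltbp2 at 6.10, the activin subunit gene Inhba at 3.35 (SE 1.03, adjusted p = 0.0278), the receptor gene Tgfbr1 at 2.30 (SE 0.28, adjusted p = 0.000215) and the ligand gene Tgfb3 at 1.82 (SE 0.51, adjusted p = 0.0189). Inhba lost its call without either C3H injured library or without C3H uninjured library 2 or 3 (highest adjusted p = 0.184), and Tgfb3 without C3H injured library 1 or C3H uninjured library 2 (highest adjusted p = 0.188). In B6 0 passed with limma (median 0.45, 8 with an unadjusted p below 0.05), and 14 of the 17 were higher in injured regions, as in C3H. For the difference of injury effects 0 of these 17 were called with limma without the animal (median 0.44). All 14 myofibroblast matrix genes rose in C3H (median 3.27), or 6 of 14 without C3H injured library 1 and 13 with DESeq2, among them the tenascin gene Tnc at 4.33 (SE 0.94, adjusted p = 0.00521), fibronectin, Fn1, at 4.12 (SE 0.89, adjusted p = 0.00511) and Cthrc1 at 3.91 (SE 0.86, adjusted p = 0.00566). Without C3H injured library 1 Tnc (highest adjusted p = 0.0620) and Cthrc1 (0.0627) missed the threshold. In B6 all 14 were higher and 0 passed with limma (median 0.94, 1 with an unadjusted p below 0.05). Their summed level was 662642 to 966044 in injured and 26007 to 315303 in uninjured C3H libraries, and 556186 to 571115 in injured and 218863 to 479978 in uninjured B6 libraries. In uninjured regions 3 of the 14 were lower in C3H than in B6 (1 with edgeR and with only the groups compared, 0 without B6 uninjured library 1, 1 without B6 uninjured library 2 or C3H uninjured library 3, and 10 without C3H uninjured library 1), among them Cthrc1 (-4.43, SE 0.77, adjusted p = 0.00826) and Postn (-2.73, SE 0.59, adjusted p = 0.0276). Cthrc1 missed there without B6 uninjured library 1 (adjusted p = 0.0558), and Postn without any 1 of 4 of the 6 uninjured libraries (highest adjusted p = 0.135). For the difference of injury effects 0 of 14 were called with limma without the animal (median 2.28, 9 with an unadjusted p below 0.05), 0 with edgeR and 1 with DESeq2. With the mouse as a block 5 (fixed) and 2 (random) were called, all higher in C3H, and 6 were without C3H uninjured library 1.

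Markers of mural cells, the pericytes and smooth muscle cells that wrap vessels, changed in both directions. In C3H 30.7% of all genes were called (15.3% higher and 15.4% lower), a share near that of the mural markers. Of 12, 1 rose and 3 fell in C3H (median -0.21), with 0 to 3 higher and 1 to 4 lower when 1 library was left out, and a median of 0.11 with scaling to total counts and 0.24 without C3H injured library 2. In B6 0 passed with limma (median 0.09, 2 with an unadjusted p below 0.05). Vtn fell by 1.30 in C3H (SE 0.38, adjusted p = 0.0222) and Higd1b by 1.24 (SE 0.42, adjusted p = 0.0415). Both calls were lost without C3H injured library 2 or C3H uninjured library 3, and that of Higd1b also without C3H uninjured library 1. Kcnj8, a pericyte potassium channel, fell by 1.24 in C3H (SE 0.22, adjusted p = 0.00178), while Pdgfrb, the receptor found on both mural cells and fibroblasts, rose by 1.24 (SE 0.37, adjusted p = 0.0256), a call lost without either C3H injured library or without C3H uninjured library 2 or 3. The summed level of the 12 mural markers was 15294.5 to 21154 in injured and 15759 to 24967 in uninjured C3H libraries, and 13264 to 21683 in injured and 12024 to 24052 in uninjured B6 libraries, with no marker at 0 (0 of 12). Of 12 fibroblast markers 4 rose and 1 fell in C3H (median 0.92), or 2 and 0 without C3H injured library 1, 3 and 0 without C3H injured library 2, 6 and 0 after quantile normalisation and 7 and 1 with either animal block, and 0 passed with limma in B6 (median 0.54, 1 with an unadjusted p below 0.05). Their sums were 84734 to 100641 in injured and 65438 to 80481 in uninjured C3H libraries, and 75994 to 100925 in injured and 70539 to 95784 in uninjured B6 libraries, again with 0 of 12 at 0. The part of either cell type in the changes of the contractile genes was not tested.

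**Figure D4:**
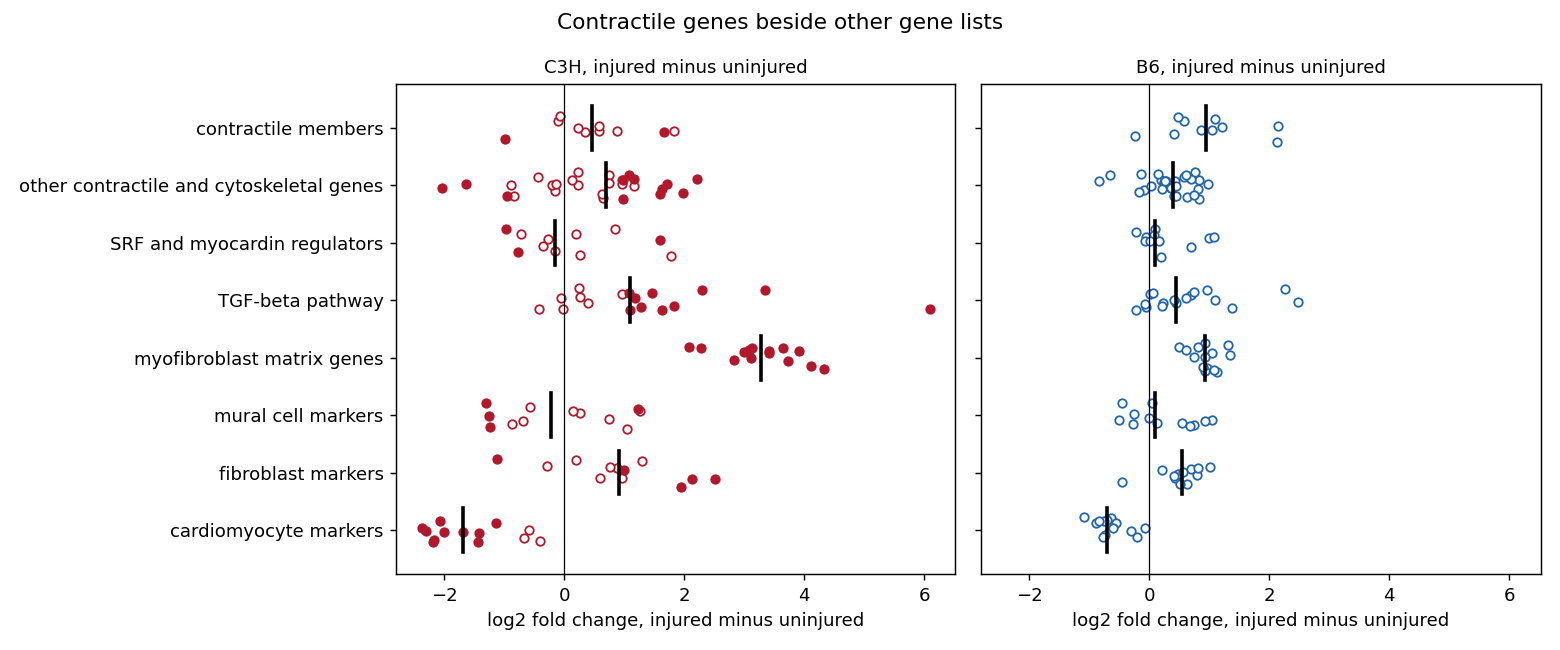
Log2 fold change of each tested gene between injured and uninjured regions of C3H (left) and B6 (right) hearts, for the 10 contractile genes and 7 other lists. Filled points passed the adjusted threshold of 0.05 and black bars are list medians. In C3H the median of the contractile genes (0.47) lies well under that of myofibroblast matrix genes (3.27), whereas in B6 both are near 1 (0.95 and 0.94). Set C3H against B6 (not drawn), the median of the matrix genes was 0.22 in injured and -1.84 in uninjured regions.

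Markers of some other cells changed over the same regions, where 15.3% of all genes were called higher and 15.4% lower in C3H. Of 10 macrophage markers 9 rose in C3H (median 2.74), and not all of these 9 calls held with 1 library left out. With limma 0 of the 10 passed in B6 (median 0.70, 4 with an unadjusted p below 0.05). Their sums were 76648 to 134238 in injured and 12931 to 22636 in uninjured C3H libraries. In B6 the sums were 37252 to 51871 in injured and 23462 to 32764 in uninjured libraries, and 0 of 10 markers was at 0. Of 10 endothelial markers 0 rose and 2 fell in C3H (median -0.36), or 0 and 0 to 2 with 1 library left out and 0 and 0 with scaling to total counts, and 0 passed with limma in B6 (median 0.19, 0 with an unadjusted p below 0.05). Of 8 skeletal muscle markers 0 passed with limma in either strain (1 with an unadjusted p below 0.05 in each, and 1 called by edgeR and by DESeq2 in C3H). Of 9 epicardial markers 0 passed with limma in either strain (0 with an unadjusted p below 0.05 in C3H and 2 in B6). The part of any of these cells in the changes of the contractile genes was not tested.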

How the data were processed

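Per the submitters' processing notes, TopHat2 2.0.11, HTSeq 0.6.1, DESeq and build mm9 were used. Annotation, strandedness and filters do not appear in the sources used here. mm9 is a B6 genome, so C3H reads over variants could be counted less. The values the authors deposited are a signal, read counts divided by 1 size factor per library: 100% were whole multiples of 1 step per library (relative tolerance 1e-06), and reads were recovered from that step.

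Genes at 10 or more in at least 2 libraries (14751, with 523 left out) were fitted as log2(value + 1), which understates changes of low genes, with limma 3.58.1 in R 4.3.3. The fit had 4 group means over 11 libraries, a mean-variance trend and 7 residual degrees of freedom. Two-sided p-values were adjusted by Benjamini-Hochberg over all genes. The labels give the regions of a mouse 1 number, and their residuals correlated at 0.30 and 0.58 in C3H and 0.28, -0.01 and 0.52 in B6. The fixed animal block left out C3H uninjured library 3, and the random block had a correlation of 0.39. Alternatives used edgeR 4.0.16 with TMM and DESeq2 1.42.0 on recovered reads, other pseudocounts, filters and scalings, and left out each library. The fit was tested on simulated data with independent libraries, which cannot show how it does where regions share a mouse.

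Members and gene lists were chosen with earlier results of these data known. Named were the 10 members, genes out of the up to 4 called ones of a list with the largest changes or else the 1 with the smallest p, and the 5 genes most like the members. Not every gene that met this rule is named, and apart from mural cells no gene of the cell marker lists is. Myocd and the sex-linked genes were named outside that rule, after their values were seen.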

Additional observations from a re-analysis of the deposited data

How the results depend on the processing

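The C3H injured group holds 2 libraries, so leaving out either makes the other stand alone, and it is then assumed to vary like the other groups. Actg2 in B6 uninjured library 2 rests on 5 reads. Losses of named list genes stand beside them, and list counts without a library are given for some lists only. In C3H the 2 contractile genes called between injured and uninjured regions became 1 after quantile normalisation, 4 with the random replicate block, and 1 to 2 with 1 library left out. They became 3 with edgeR, DESeq2, a pseudocount of 8 and the fixed replicate block (2 higher, 1 lower each), and with scaling to total counts and only the groups compared (3 higher, 0 lower). In B6 the count of 0 became 1 with DESeq2 and with the fixed and the random replicate block, and was 0 to 0 with 1 library left out. The blocks changed no other member call than those given for Cnn1, Tagln and Actg2. Scaling to total counts moved the median of all genes to 0.33 in C3H and 0.26 in B6, against 0.01 in both as reported. Signs turned, with the cause not tested, for values that passed no threshold. In C3H injured against uninjured regions Acta2 was 0.23 (quantile), 0.22 (total) and 0.10 (fixed block), and Myl9 0.25 (total) and 0.066 (fixed block). In B6 Smtn was 0.011 (total). For the difference between strains Cnn2 was 0.013 (total) and 0.084 (fixed block). Between uninjured strains Acta2 was 0.066 (edgeR) and 0.030 (DESeq2), and Cnn1 0.0050 (quantile). With 1 library left out, the C3H injury effect spanned -0.76 to 0.57 for Acta2, -0.40 to 0.27 for Myl9 and -0.16 to 0.63 for Tpm2. The difference spanned -0.84 to 0.51 for Actg2, -0.35 to 0.24 for Cnn2, -0.56 to 0.21 for Tagln and -0.65 to 0.14 for Tpm2. Between uninjured strains the spans were -0.46 to 0.44 for Acta2, -1.22 to 0.13 for Actg2, -0.43 to 0.043 for Cnn1, -0.41 to 0.022 for Cnn2, -0.17 to 0.41 for Myl9 and -0.082 to 0.46 for Smtn. Between injured strains they were -0.54 to 0.057 for Cnn2, -0.62 to 0.16 for Lmod1 and -0.050 to 0.67 for Myh11.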
